A study of Mus musculus with 16 samples.

Results

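The genes of major histocompatibility complex (MHC) class II presentation are H2-Aa, H2-Ab1, H2-Eb1, Cd74, H2-DMa, H2-DMb1, H2-DMb2, H2-Oa, H2-Ob and Ciita. They were taken by gene symbol from the liver and kidney tables, and where a symbol was repeated the row with the highest mean level was used. Of these 10 genes, 9 had a row among the 32989 genes, and H2-DMb1 was not analysed here. Levels are FPKM, which divide the fragments of a gene by its exon length and by the library total, so that they can be compared between genes.

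The libraries came from male C57BL/6J mice aged 97 weeks that had spent 85 weeks either under a fixed light–dark cycle with light from 8:00 to 20:00 (LD) or under a cycle advanced by 8 hours every 4 days (ADV). Liver and kidney of 4 LD-conditioned mice, L63, L65, L86 and L104, and of 4 ADV-conditioned mice, A75, A91, A94 and A115, gave 16 libraries of poly(A) RNA from whole organs. The libraries held from about 22742500 to 26287000 fragments in the livers and from about 17115700 to 19702200 in the kidneys. Albumin lay between 41460 and 52060 FPKM in the livers of the LD-conditioned mice and between 3.87 and 5.71 FPKM in their kidneys, and Slc34a1, a phosphate transporter of the proximal tubule, lay between 800.8 and 991.6 FPKM in those kidneys and was listed at 0 in all livers. Mitochondrial genes took 33.8% of the fragments in the kidney of A115, which stood apart from the other libraries in this. Slc34a1 was at 153.6 FPKM in that kidney and Miox, another gene of the proximal tubule, at 259 FPKM against 1188 to 1520 FPKM in the LD kidneys. The 7 proximal tubule markers together reached 46540 FPKM there, 45920 FPKM of it from Kap, against at most 41900 FPKM under LD, and the part of this in its class II levels was not tested. The libraries were sequenced by 2 providers, and which library came from which is not given in the sources used here. A sequencing batch can therefore not be told apart from the condition or from the organ.

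A class II molecule is a pair of an alpha and a beta chain that carries peptides of engulfed proteins to the cell surface, where CD4+ T cells read them. The invariant chain Cd74 guides new pairs to the endosome, H2-DM exchanges its last remnant for a peptide, H2-DO holds H2-DM back, and CIITA is the coactivator that switches the whole set of genes on. B cells, dendritic cells and macrophages express the set constantly, and interferon gamma can induce it in other cells.

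The genes other than Cd74 and Ciita lie in the MHC on chromosome 17 (GRCm38). H2-Aa occupies chr17:34282751-34287771 on the minus strand, and on the plus strand H2-Ab1 occupies chr17:34263227-34269418, H2-Eb1 chr17:34305867-34316674 and H2-DMa chr17:34122832-34139101. On the same strand follow H2-DMb2 at chr17:34145416-34151095, H2-Oa at chr17:34092379-34095234 and H2-Ob at chr17:34238905-34245908. The 130 bases before the RefSeq start (GRCm38.p6) are shown for 5 genes because CIITA acts through factors bound to the X box and Y box of class II promoters. Capitals mark 2 sets of letters that were chosen after the sequences had been read, ATGATG, which is part of X box sequences, and TGATTGG, the core of the Y box, searched on both strands.

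H2-Aa: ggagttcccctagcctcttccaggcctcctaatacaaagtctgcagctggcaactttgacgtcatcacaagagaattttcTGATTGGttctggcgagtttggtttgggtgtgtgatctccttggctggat
H2-Eb1: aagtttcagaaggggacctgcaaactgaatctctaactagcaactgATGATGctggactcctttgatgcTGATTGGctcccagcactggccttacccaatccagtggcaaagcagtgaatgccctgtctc
H2-DMb2: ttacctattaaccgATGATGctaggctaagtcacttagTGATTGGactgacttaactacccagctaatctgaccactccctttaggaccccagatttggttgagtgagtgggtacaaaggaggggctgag
H2-Oa: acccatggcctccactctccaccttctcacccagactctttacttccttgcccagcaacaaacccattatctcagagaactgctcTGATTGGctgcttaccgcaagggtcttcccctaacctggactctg
H2-Ob: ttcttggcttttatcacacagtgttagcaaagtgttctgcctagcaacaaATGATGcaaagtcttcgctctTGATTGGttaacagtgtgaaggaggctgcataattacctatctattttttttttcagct

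These bases lie at chr17:34287824-34287953 on the minus strand for H2-Aa, and on the plus strand at chr17:34305737-34305866 for H2-Eb1, chr17:34145119-34145248 for H2-DMb2, chr17:34092249-34092378 for H2-Oa and chr17:34238775-34238904 for H2-Ob. The Y box letters began 50 bases before the start in H2-Aa, 61 in H2-Eb1, 92 in H2-DMb2, 45 in H2-Oa and 59 in H2-Ob, and the X box letters began 84, 116 and 80 bases before the start in H2-Eb1, H2-DMb2 and H2-Ob. Of 32544 different windows of 250 bases before a gene start, 7.21% held the Y box letters and 9.31% the X box letters. The X box letters beginning at most 35 bases before the Y box letters, on the same strand and without overlap, were found in 0.0461% of the windows and in those of H2-Eb1, H2-DMb2, H2-Ob and H2-DMb1. The X box letters were not found in the windows of H2-Aa and H2-Oa, and neither set was found in those of H2-DMa. Windows for 7 of the 10 genes were at hand, and those of H2-Ab1, Cd74 and Ciita were not used here. A match of letters is a description and not a site of binding.

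In all 16 libraries Cd74 was the most abundant of these genes. In the livers the order of the levels was Cd74, H2-Aa, H2-Ab1, H2-Eb1 and H2-DMa in 8 of 8 libraries, and the ranges of the LD livers did not overlap between neighbours in this order. In the kidneys the same order was found in 5 of 8 libraries, and H2-Ab1 stood above H2-Aa in the other 3, those of A75, A94 and A115. H2-DMb2, H2-Oa, H2-Ob and Ciita lay below H2-Eb1 in 8 of 8 livers and 8 of 8 kidneys, and among these 4 genes the ranges of the LD livers overlapped. Fragments from these 4 genes were few in some livers, from 1 to 151.5 for H2-Oa, 3.5 to 237 for H2-DMb2, 6 to 289.5 for H2-Ob and 16.5 to 339.5 for Ciita.

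**Figure D1:**
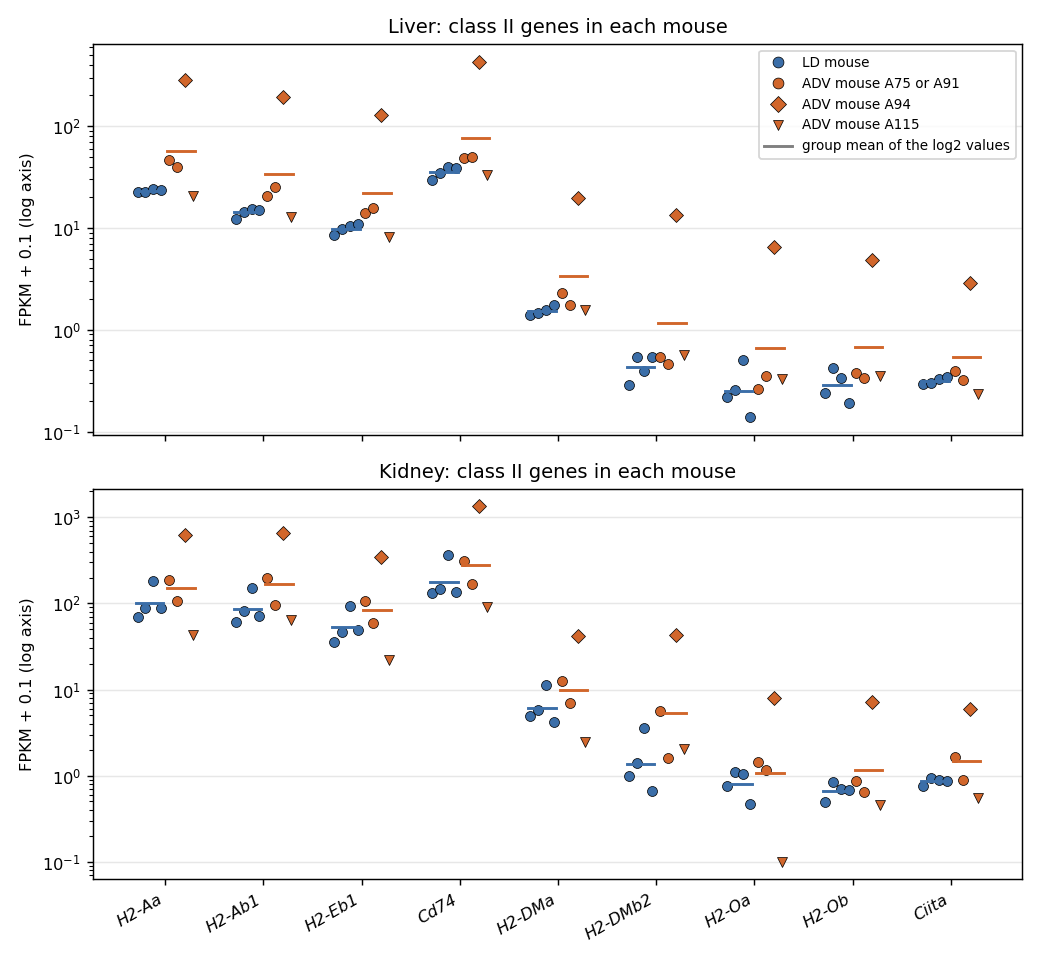
Levels of the 9 class II genes as FPKM + 0.1 on a log axis, livers above and kidneys below, with 1 point per mouse and a line at the mean of the log2 values of the 4 mice of a condition. The diamonds of A94 stand above all other points of every gene in both organs, and the triangle of A115 at the bottom right of the kidney panel is H2-Oa with 0 fragments.

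The comparison of ADV with LD asks what chronic misalignment of the light cycle did to these transcripts. No class II gene was called different between the conditions in either organ (limma, adjusted p under 0.05). The standard errors on the log2 scale lay between 0.65 and 0.97 in the liver and between 0.66 and 1.15 in the kidney. Differences of this size are thus left unresolved. In both organs 1 mouse, A94, had the highest level of 9 of 9 genes. Its levels were between 12.0 and 39.2 times the LD mean in the liver, and between 5.78 and 27.7 times in the kidney. A94 was the highest of the 8 mice in 49.7% of all genes tested in the liver and in 26.2% of those in the kidney.

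H2-Aa, the alpha chain of the molecule called I-A, was at 22.6, 22.3, 24.1 and 23.7 FPKM in the livers of L63, L65, L86 and L104, and at 46.3, 39.9, 282.2 and 20.4 FPKM in those of A75, A91, A94 and A115. Its partner H2-Ab1, the beta chain, was at 12.1, 14.3, 15.4 and 14.9 FPKM in the LD livers and at 20.6, 25.4, 193.5 and 12.8 FPKM in the ADV livers. For both chains 3 of the ADV livers lay above all LD livers and the liver of A115 lay within or below their range, so that the groups overlapped. ADV exceeded LD by 1.30 ± 0.65 (SE) on the log2(FPKM + 0.1) scale for H2-Aa and by 1.25 ± 0.70 for H2-Ab1 (n = 4 mice per condition, limma, adjusted p = 0.45 and 0.48).

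H2-Eb1, the beta chain of I-E, was at 8.44, 9.64, 10.4 and 10.7 FPKM in the LD livers and at 13.8, 15.6, 128.8 and 7.97 FPKM in the ADV livers. C57BL/6 mice carry a haplotype that makes no I-E alpha chain, and the row of the silent alpha gene, H2-Ea-ps, was at 0 fragments in all 16 libraries, which allows up to between 0.146 and 0.225 FPKM. Cd74 was at 29.3, 34.9, 39.3 and 38.8 FPKM in the LD livers and at 48.8, 49.9, 428.6 and 33.3 FPKM in the ADV livers. Both genes followed the I-A chains, with A75, A91 and A94 above and A115 not above the LD livers. The differences were 1.15 ± 0.71 for H2-Eb1 and 1.12 ± 0.68 for Cd74 on the log2 scale (SE, limma, adjusted p = 0.51 and 0.50).

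H2-DMa, the alpha chain of the peptide exchanger H2-DM, was at 1.30, 1.35, 1.46 and 1.64 FPKM in the LD livers and at 2.20, 1.64, 19.8 and 1.47 FPKM in the ADV livers. H2-DMb2, one of its beta chains, was at 0.183, 0.442, 0.293 and 0.445 FPKM in the LD livers and at 0.438, 0.360, 13.4 and 0.470 FPKM in the ADV livers. Outside A94 the livers of both conditions overlapped for both chains. Of the 100-base windows of the longest H2-DMb2 transcript (GENCODE M21), 12.9% also occur in H2-DMb1, so that part of the H2-DMb2 fragments is uncertain.

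The chains of H2-DO, the brake on H2-DM that is best known from B cells, were scarce. H2-Oa was at 0.117, 0.155, 0.401 and 0.039 FPKM in the LD livers and at 0.164, 0.249, 6.38 and 0.227 FPKM in the ADV livers, and H2-Ob at 0.138, 0.320, 0.236 and 0.092 FPKM against 0.273, 0.235, 4.78 and 0.251 FPKM. Ciita was at 0.192, 0.198, 0.228 and 0.245 FPKM in the LD livers and at 0.296, 0.223, 2.75 and 0.131 FPKM in the ADV livers. In the liver of A94 the level was 28.4 times the next highest mouse for H2-DMb2, 15.9 times for H2-Oa and 14.9 times for H2-Ob, against 6.10 times for H2-Aa and 8.59 times for Cd74.

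In the kidney H2-Aa was at 70.01, 88.0, 184.6 and 87.6 FPKM under LD and at 185.6, 105.9, 621.6 and 42.9 FPKM under ADV, and H2-Ab1 at 60.8, 80.8, 151.6 and 71.1 FPKM against 195.7, 95.0, 661.3 and 64.2 FPKM. Cd74 was at 131.9, 146.5, 366.1 and 137.2 FPKM in the LD kidneys and at 312.7, 166.8, 1340 and 91.8 FPKM in the ADV kidneys. The LD kidney of L86 stood near the ADV kidney of A75, and A115 had the lowest H2-Aa and Cd74 of all 8 kidneys. In 8 of 9 genes A75 was the next highest kidney after A94, and in Cd74 it was L86.

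H2-Eb1 lay between 36.0 and 92.3 FPKM in the LD kidneys and at 106.8, 59.7, 347.4 and 22.0 FPKM in the ADV kidneys. H2-DMa lay between 4.05 and 11.2 FPKM in the LD kidneys and at 12.4, 6.93, 42.3 and 2.37 FPKM in the ADV kidneys, and H2-DMb2 between 0.565 and 3.47 FPKM against 5.55, 1.49, 43.2 and 1.94 FPKM. H2-DMb2 thereby reached the level of H2-DMa in the kidney of A94, with a ratio of H2-DMa to H2-DMb2 of 0.979, while this ratio lay between 3.21 and 7.17 in the LD kidneys. The ratio was also below the LD range in the kidneys of A115, at 1.22, and A75, at 2.24. H2-Oa lay between 0.370 and 1.01 FPKM in the LD kidneys, at 1.33, 1.06 and 7.83 FPKM in those of A75, A91 and A94, and at 0 fragments in A115, which allows up to 0.150 FPKM. H2-Ob lay between 0.387 and 0.746 FPKM in the LD kidneys and at 0.761, 0.541, 7.08 and 0.353 FPKM in the ADV kidneys. Ciita lay between 0.652 and 0.841 FPKM in the LD kidneys and at 1.56, 0.777, 5.85 and 0.453 FPKM in the ADV kidneys.

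Over the 9 genes the ADV minus LD difference lay between 0.77 and 1.46 in the liver and between 0.41 and 1.97 in the kidney on the log2 scale, with medians of 1.25 and 0.70. Over all genes tested the medians were 0.10 and −0.02. The difference was positive in 9 of 9 genes in both organs, and in 65.7% of 12835 genes in the liver and 46.4% of 14452 in the kidney. In limma 0 of 9 genes passed an adjusted p of 0.05 in either organ, 0 of 9 had an unadjusted p under 0.05, and limma-voom on the recovered fragments gave 0 of 9 by both counts. Over all genes 0.00779% were called in the liver and 0% among kidney libraries. At an unadjusted p under 0.05 in limma, 1110 of 12835 genes were higher and 402 lower in the liver. In the kidney 253 of 14452 genes were higher and 195 lower. With limma-voom these counts were 1028 and 395 in the liver and 187 and 223 in the kidney. The groups overlapped for 9 of 9 genes in both organs, while they did not overlap for 8.84% of all genes in the liver and 2.8% in the kidney. In two-sided exact permutation tests of the single genes p lay between 0.086 and 0.60 in the liver and between 0.14 and 0.69 in the kidney, where 0.029 is the smallest that 4 against 4 mice can give.

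Without A94 the median difference was 0.29 in the liver, over the 7 genes still above the filter on low values, and −0.02 in the kidney. In this setting H2-Aa had a difference of 0.53 ± 0.23 (SE) in the liver, with an adjusted p of 0.34 in limma, and 6 of 9 genes turned negative in the kidney, where the median over all genes was −0.10. Without A115 the kidney median was 1.31, where all genes shifted by 0.20, and 0 of 9 genes were called in the kidney while 18.8% of all genes were. At an unadjusted p under 0.05 there were then 6 of 9 class II genes in the kidney and 3 of 9 in the liver (limma), against 37.1% and 10.4% of all genes. Without both mice the kidney median was 0.60 with 9 of 9 genes positive. In the same setting H2-Aa in the liver had a difference of 0.89 ± 0.10 (SE) on the log2 scale with an adjusted p of 0.069 in limma, and 0 of 7 genes tested in the liver and 0 of 9 in the kidney were called, against 0.016% and 4.7% of all genes. Here 4 of 7 genes in the liver and 0 of 9 in the kidney had an unadjusted p under 0.05, against 12% of all genes in the liver. Of all 14303 genes tested in the kidney in this setting, 3293 were higher and 898 lower at an unadjusted p under 0.05 (limma).

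**Figure D2:**
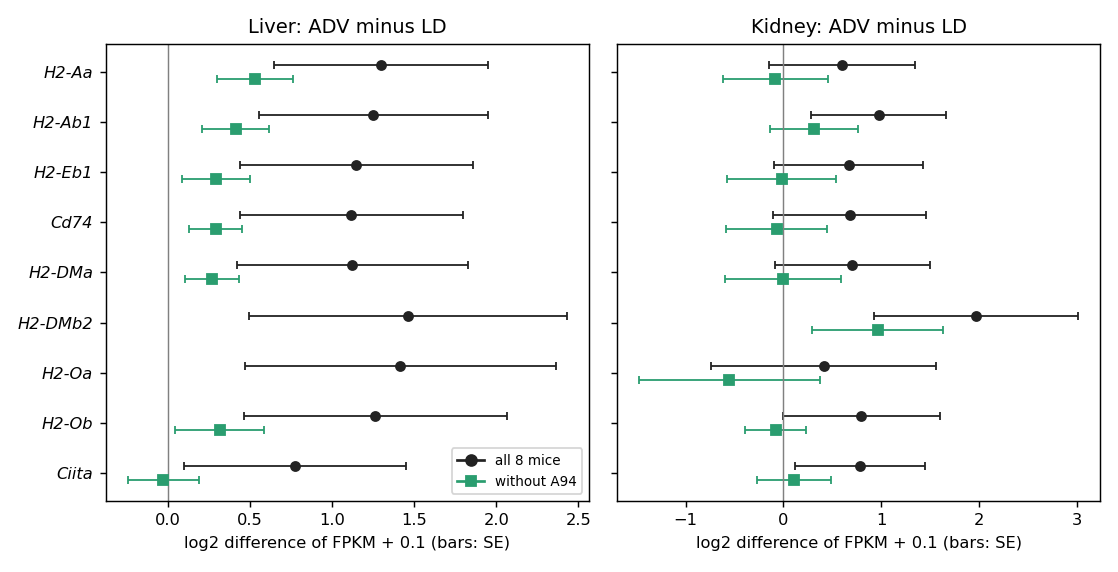
ADV minus LD difference of each class II gene on the log2(FPKM + 0.1) scale with its standard error, livers on the left and kidneys on the right, from all 8 mice (circles) and without A94 (squares). Without A94 every value plotted is lower, kidney H2-Oa goes from 0.41 to −0.55, and H2-DMb2 and H2-Oa have no liver value because they fall under the filter on low values.

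The difference of the ADV effect between liver and kidney was tested as an interaction. It lay between −0.51 for H2-DMb2 and 1.001 ± 1.61 (SE) for H2-Oa on the log2 scale, and 0 of 9 genes were called (limma, adjusted p = 0.9999 for each), as were 0% of all genes tested. The count at an unadjusted p under 0.05 and the count by limma-voom were also 0 of 9. Of all 14379 genes, 446 had a positive and 90 a negative interaction at an unadjusted p under 0.05 in limma, and 460 and 74 with limma-voom. The standard errors, 1.02 for Ciita and 1.08 for H2-Aa, leave differences of this size between the organs unresolved.

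H2-Ab1, H2-Eb1 and Cd74 were lower in the liver than in the kidney under each scaling tried. The log2 difference, liver minus kidney over both conditions, was −2.45 ± 0.54 (SE) for H2-Ab1, −2.18 ± 0.57 for H2-Eb1, −2.10 ± 0.56 for Cd74 and −1.75 ± 0.54 for H2-Aa (limma, adjusted p = 0.00073, 0.0028, 0.0035 and 0.0085). It was −1.76 for H2-DMa, −1.92 for H2-DMb2 and −1.45 for Ciita, which passed the same test with adjusted p of 0.012, 0.035 and 0.018. For H2-Oa and H2-Ob, at −1.19 and −0.9997, the adjusted p was 0.20 and 0.15 in limma, which did not pair the organs of a mouse. Paired within the mouse, H2-Ob was lower in the liver in 8 of 8 mice and H2-Oa in 7 of 8 (two-sided exact sign-change test, p = 0.0078 and 0.039, adjusted p over the 9 genes = 0.0088 and 0.039). In the limma fit 7 of 9 genes were called lower in the liver, as were 61.5% of all genes. The call of H2-DMb2 was lost without L63, L65, L86 or A75 (adjusted p between 0.067 and 0.10), with pseudocounts of 0.5 and 1 (adjusted p = 0.068 and 0.10) and with limma-voom (adjusted p = 0.053). The call of Ciita was lost without A75 (limma, adjusted p = 0.057) and with a pseudocount of 1 (adjusted p = 0.073), while H2-Oa and H2-Ob were called without A94 (adjusted p = 0.048 and 0.00055) and H2-Oa also without A115 (adjusted p = 0.042 in limma).

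The median gene differed between liver and kidney by −0.74 on the log2 scale. With libraries scaled by the median ratio, 3 of 9 genes were called lower in the liver, H2-Ab1 at −1.67, H2-Eb1 at −1.41 and Cd74 at −1.32 (limma, adjusted p = 0.0048, 0.019 and 0.025), against 33.6% of all genes. Without A115 the same scaling gave 5 of 9, with H2-Aa and H2-DMa in addition (limma, adjusted p = 0.044 and 0.047), against 38.8% of all genes. With quantile normalization 4 of 9 genes were called lower, against 32.3% of all genes, and H2-Oa at 0.07 and H2-Ob at 0.31 changed sign without being called. Within each mouse, the difference relative to the median gene of that mouse was −1.69 ± 0.51 (SD, n = 8 mice) for H2-Ab1, −1.42 ± 0.48 for H2-Eb1, −1.35 ± 0.47 for Cd74, −1.001 ± 0.50 for H2-Aa and −0.70 ± 0.25 for Ciita. These 5 genes and H2-DMa were lower in the liver in 8 of 8 mice by this measure (exact sign-change test, p = 0.0078, the smallest it can give, adjusted p over the 9 genes = 0.012), as were 25.4% of all genes in every mouse. H2-DMb2 and H2-Ob were lower in 7 of 8 mice (exact p = 0.016 and 0.031, adjusted p = 0.020 and 0.035), and H2-Oa in 6 of 8, with an exact p of 0.29.

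**Figure D3:**
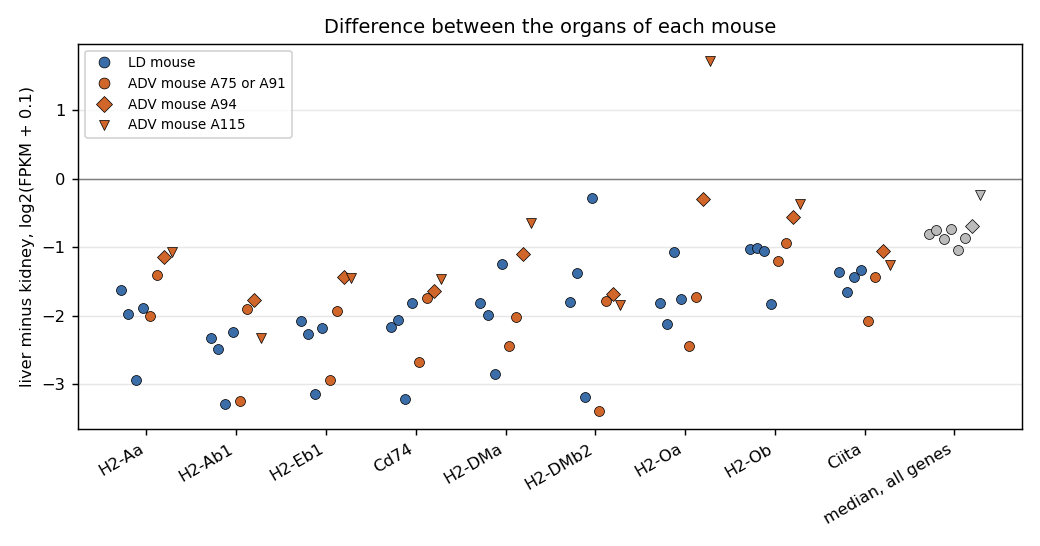
Liver minus kidney difference of each class II gene in each mouse on the log2(FPKM + 0.1) scale, with the median over all genes tested in grey on the right. All points of H2-Aa, H2-Ab1, H2-Eb1, Cd74, H2-DMa and Ciita lie below the grey point of the same mouse, and the H2-Oa point above 0 is A115, whose kidney had 0 fragments.

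The proportions of the genes within a library do not depend on how libraries are scaled. The ratio of H2-Aa to H2-Ab1 was 1.88, 1.55, 1.57 and 1.59 in the LD livers and 2.25, 1.57, 1.46 and 1.596 in the ADV livers. In the kidneys it was 1.15, 1.09, 1.22 and 1.23 under LD and 0.948, 1.11, 0.940 and 0.668 under ADV. Every liver thus held more H2-Aa for its H2-Ab1 than any kidney. The log2 ratio was 0.73 ± 0.20 (SD) in the livers and 0.04 ± 0.29 in the kidneys, and was higher in the liver of 8 of 8 mice by 0.69 ± 0.36 (SD, n = 8, two-sided exact sign-change test, p = 0.0078, adjusted p over 8 ratios = 0.013). Without A115 the difference was 0.61, and in the LD-conditioned mice alone it was 0.48.

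Cd74 per H2-Ab1 was likewise higher in the liver in 8 of 8 mice, by 0.35 on the log2 scale, and Ciita per H2-Ab1 by 0.99, or by 0.66 with no pseudocount (exact sign-change test, p = 0.0078 for each of them). H2-Eb1 and H2-DMa per H2-Ab1 were higher in the liver in 7 of 8 mice, by 0.27 and 0.68 (exact p = 0.016 for both). The 8 ratios share H2-Ab1, the gene with the largest difference between the organs, and are therefore not separate results. Of all other genes 80.5% were likewise higher in the liver per H2-Ab1 at an exact p under 0.05, with a median log2 difference of 1.71, which is above that of each of the 8 class II ratios. All 8 passed the adjusted threshold with the pseudocount, but H2-DMb2 did not without A115 (exact sign-change test, adjusted p = 0.078). With no pseudocount 6 of 7 did, H2-DMb2 at 0.30 with an exact p of 0.38 being the exception, and H2-Oa gave no value because of its 0. The comparison of ratios between the organs was chosen after the data had been seen.

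**Figure D4:**
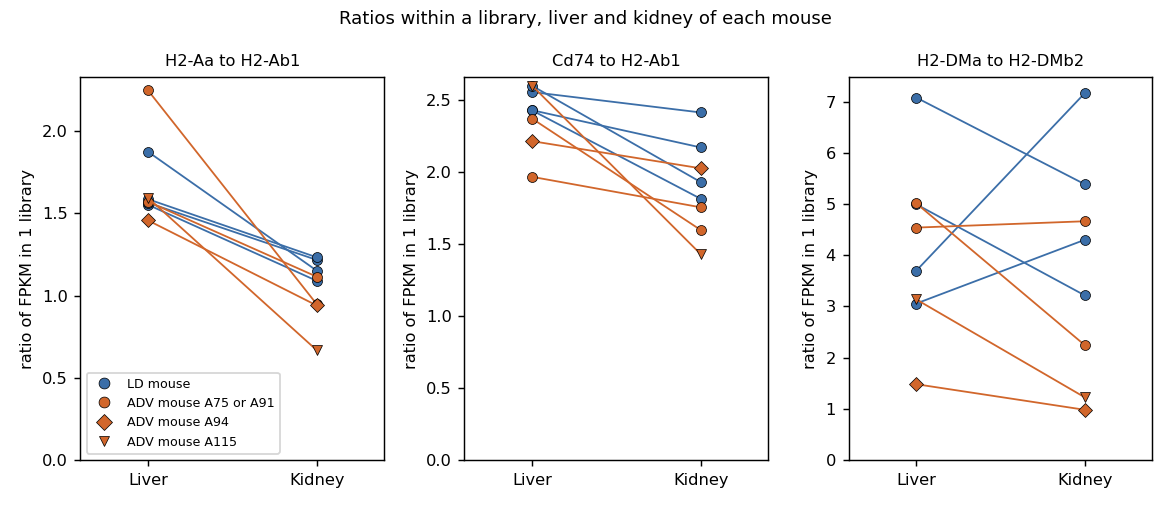
Ratios of FPKM within a library for H2-Aa to H2-Ab1, Cd74 to H2-Ab1 and H2-DMa to H2-DMb2, with a line joining liver and kidney of each mouse. The H2-Aa to H2-Ab1 lines fall from liver to kidney in all 8 mice, and A94 has the lowest H2-DMa to H2-DMb2 ratio in both organs.

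Between the conditions, 0 of 6 ratios to H2-Ab1 passed the adjusted threshold in either organ. In the liver Ciita per H2-Ab1 lay between −5.60 and −5.38 on the log2 scale under LD and between −6.30 and −5.71 under ADV, and the difference was −0.48 with the pseudocount of 0.1 (exact permutation, p = 0.029, adjusted p over 6 ratios = 0.086). With no pseudocount, an alternative added after seeing the data, the groups overlapped, between −6.18 and −5.93 under LD and between −6.83 and −6.12 under ADV, and the difference was −0.38 (exact permutation, p = 0.086, adjusted p = 0.26). H2-Eb1 per H2-Ab1 was also lower in all ADV livers, by a log2 difference of −0.10, with an exact p of 0.029 and an adjusted p of 0.086, or 0.17 with no pseudocount. The groups nearly touched, with the lowest LD liver at −0.5701 and the highest ADV liver at −0.5729. How many of all genes have ratios to H2-Ab1 that separate the conditions was not computed. In the kidney the smallest exact p was 0.057, for H2-Aa per H2-Ab1 with a log2 difference of −0.38, which was −0.23 without A115 (exact permutation, adjusted p = 0.51).

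Markers of other cells moved with the class II genes in A94. The 11 B cell markers summed to between 2.08 and 3.895 FPKM in the LD livers and 75.2 FPKM in the liver of A94, and to between 2.29 and 5.99 FPKM in the LD kidneys and 72.5 FPKM in the kidney of A94. In the other ADV mice the sum lay between 3.25 and 4.59 FPKM in the livers and between 1.72 and 6.47 FPKM in the kidneys. The part of these cells in the class II levels was not tested, and in whole organs more cells of a type and more RNA per cell cannot be told apart.

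The 12 macrophage and monocyte markers summed to between 170.1 and 240.4 FPKM in the LD livers and 306.8, 235.6, 675.6 and 251 FPKM in those of A75, A91, A94 and A115. In the kidneys they summed to between 98.3 and 264 FPKM under LD, with the highest value in L86, and to 354.6 FPKM in A75, 123 FPKM in A91, 725.8 FPKM in A94 and 112.4 FPKM in A115. A75 and then L86 were thus the next highest kidneys after A94 in these markers, and they were so too in the summed markers of conventional dendritic cells, T cells, plasma cells and all leukocytes. In the B cell markers they were not, since L86 was at 3.14 FPKM where the LD kidneys reached 5.99 FPKM. The 10 conventional dendritic cell markers summed to 17.6 FPKM in the liver of A94 against at most 4.22 FPKM under LD, and to 37.0 FPKM in its kidney against at most 17.8 FPKM. Naaa at 14.1 FPKM and Itgax at 8.53 FPKM gave most of the kidney sum, while Zbtb46 of the same list, at 0.733 FPKM in the liver and 1.34 FPKM in the kidney of A94, and Cd209a, at 0.911 FPKM in that kidney, lay within the LD ranges. Clec4f, which marks Kupffer cells, was at 0 in all kidneys and between 20.3 and 27.6 FPKM in the LD livers, and stood at 97.5 FPKM in the liver of A94.

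The other leukocyte marker lists were also highest in A94, with 891.2 FPKM of plasma cell markers in its liver against at most 208.8 FPKM under LD, 20.8 FPKM of T cell markers against at most 2.72 FPKM, 300.2 FPKM of plasmacytoid dendritic cell markers against at most 139.2 FPKM, and 87.0 FPKM of pan-leukocyte markers against at most 12.3 FPKM. Jchain alone was at 600.1 FPKM of the plasma cell sum there against at most 8.404 FPKM under LD, while Sdc1 of the same list was at 76.1 FPKM against at most 69.97 FPKM. The 300.2 FPKM rest on Bst2, which alone was at 296.4 FPKM there, and 2 of the 5 genes of that list were tested in the liver. Endothelial markers summed to 54.4 FPKM in its liver and 55.8 FPKM in that of A115, where the LD livers reached 47.1 FPKM. The 7 hepatocyte markers summed to 54550 FPKM in the liver of A94, within the LD range of 53170 to 65910 FPKM, but Hnf4a at 126.7 FPKM, Tat at 444.5 FPKM and Cps1 at 373.3 FPKM lay below their lowest LD livers at 177.8, 655 and 598.2 FPKM. Hnf4a was also below the LD livers in A75, at 149 FPKM, and A91, at 146.4 FPKM, but not in A115, at 198.6 FPKM. Tat was also below them in A91, at 637.5 FPKM, but not in A75 and A115, at 890.7 and 706.2 FPKM. In limma 0 genes of these lists were called in either organ.

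The genes that act upstream and downstream of class II were described by list. Of 10 genes of the CIITA enhanceosome, the DNA-bound complex of RFX, NF-Y and CREB proteins with its coactivators, 0 were called in either organ, and the median log2 difference between ADV and LD was 0.09 (liver) and −0.13 (kidney). In A94 this list deviated from the LD mean by a median of 0.11 in the liver and 0.09 in the kidney, whereas the class II genes deviated by 3.71 and 2.92. The smallest p was that of Rfx5, the DNA-binding RFX subunit, with 0.50 ± 0.19 (SE) in the liver and 0.44 ± 0.22 in the kidney (limma, adjusted p = 0.38 and 0.9999).

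From interferon gamma to CIITA, 10 of 12 genes were tested in the liver and 11 in the kidney, 0 were called, and the medians were 0.42 and 0.47. Without A94, when 9 and 10 genes were tested, the medians were 0.09 and 0.01. Ifng, the cytokine at the head of this list, was at most 0.109 FPKM in the livers and reached 0.737 FPKM in the kidney of A94.

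Of 9 genes of endosomal proteolysis and reduction, which degrade the invariant chain and antigens, 0 were called, with medians of 0.30 in the liver and 0.15 in the kidney, or 0.15 and 0.04 without A94. Ctss, the protease that trims the invariant chain in these cells, was at 47.3, 34.4, 163.9 and 35.5 FPKM in the ADV livers against 25.2 to 32.5 FPKM under LD, so that 4 of 4 ADV livers lay above the LD livers (0.98 ± 0.44, limma, adjusted p = 0.42). The groups did not overlap for 8.84% of all genes in the liver. Of the genes of class II turnover and surface partners, 7 were tested in each organ with medians of 0.94 and 0.44, or 0.48 and 0.10 without A94, and March1, the ligase that removes class II from the surface, was at 4.07 FPKM in the liver of A94 against at most 0.845 FPKM under LD. Of the costimulation and CD4 recognition genes 8 were tested in the liver and 9 in the kidney, with medians of 0.74 and 0.81. Without A94, when 6 genes were tested in each organ, the medians were 0.18 and 0.14. Lag3, a receptor of T cells that binds class II, was at 6.72 FPKM in the kidney of A94 and at most 0.235 FPKM in the LD kidneys. Of these genes 0 were called in either organ in limma with all 8 mice. H2-Eb2, a further beta chain gene, was at 1.84 and 3.92 FPKM in liver and kidney of A94 and at most 0.148 FPKM in the other libraries.

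**Figure D5:**
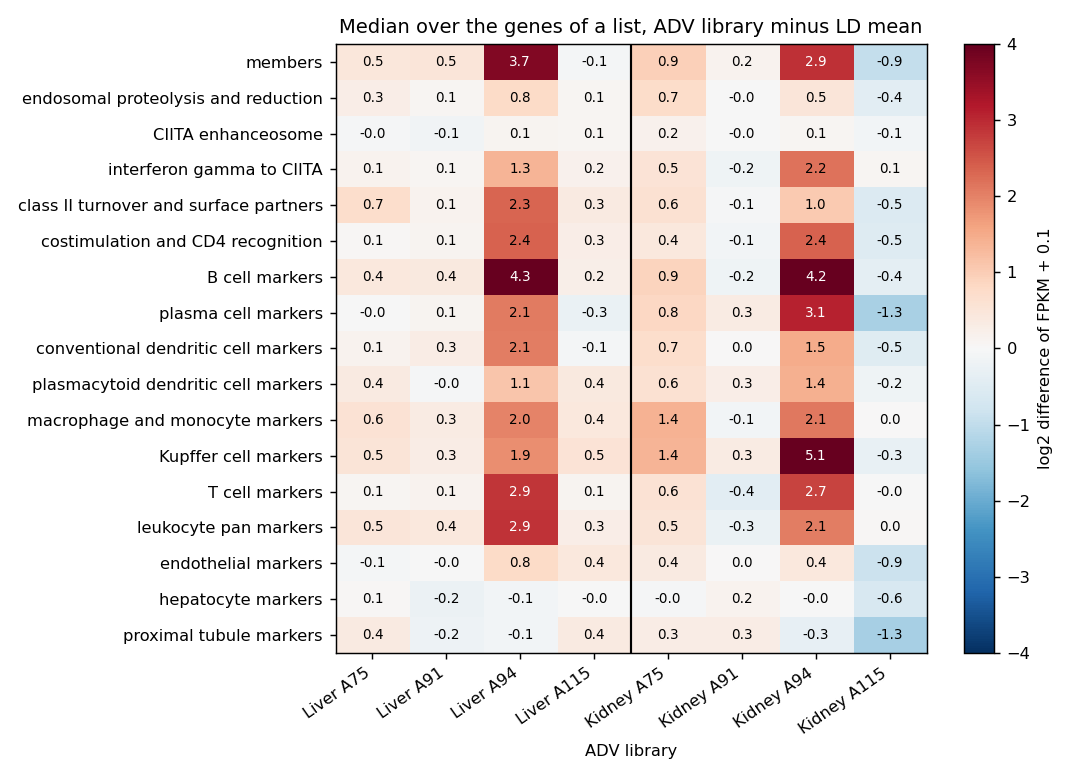
Median over the genes tested of each list of the log2(FPKM + 0.1) difference between an ADV library and the mean of the 4 LD libraries of the organ, livers on the left and kidneys on the right. The columns of A94 hold the highest values of the class II and leukocyte marker rows, 3.7 and 2.9 for the class II genes and 4.3 and 4.2 for the B cell markers, while the CIITA enhanceosome stays near 0. In the kidney the Kupffer cell row rests on 1 gene.

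The genes most like the class II genes over the mice were sought by the smaller of the Pearson correlations over the 8 livers and over the 8 kidneys with the mean log2 level of H2-Aa, H2-Ab1, H2-Eb1 and Cd74, among 12213 other genes. The highest were Mgl2 at 0.985, Mir5107 at 0.984, Sash3 at 0.984, Rac2 at 0.981 and Coro1a at 0.981. With A94 left out they ranked 17, 6, 23, 96 and 85, in a ranking that includes the class II genes. Mir5107 is annotated within Cd74 on the same strand and shares its fragments, Mgl2 is a lectin of macrophages and dendritic cells, and Sash3, Rac2 and Coro1a act in leukocytes. In the livers these values rest on A94 as the far point, and in the kidneys less so. Without it the smaller correlations, those of the livers, were 0.80 for Mgl2, 0.88 for Mir5107, 0.79 for Sash3, 0.69 for Rac2 and 0.70 for Coro1a. The kidney correlations without A94 were 0.97, 0.95, 0.95, 0.94 and 0.96 in the same order. Among the class II genes themselves the smaller correlation without A94 was 0.77 for H2-DMa and 0.70 for Ciita, but 0.18 for H2-Oa, 0.25 for H2-DMb2 and 0.25 for H2-Ob, which had few fragments in the livers.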

How the data were processed

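Poly(A) RNA of liver and kidney of 8 mice was sequenced as stranded paired-end libraries. The authors trimmed the reads with Trimmomatic, mapped them with STAR 2.5.4b to mm10, removed reads of low mapping quality, and used Homer to count fragments on exons of knownCanonical genes (UCSC). The deposited values are FPKM, although the headers say RPKM. They came in steps of 0.5 fragment in 100% of values above 0 (tolerance 0.02 of a step), so fragments could be recovered. Each library was scaled by its own total.

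Genes whose mean FPKM times exon length in kb was above 0.5 were tested on log2(FPKM + 0.1) with limma 3.58.1 (R 4.3.3, eBayes with a trend) and Benjamini-Hochberg adjustment over all genes. limma-voom on recovered fragments was an alternative, and the study's DESeq2 test was not run. Single genes and ratios were tested by exact permutation over mice, and differences between organs of a mouse by exact sign changes. The genes, the lists, the rule for naming genes (all class II genes, the genes of a list with the smallest p, the 5 most alike) and the tests were chosen with earlier results of these data known. Other genes named, such as Clec4f, Ifng, Lag3 and H2-Eb2, were chosen after their values were seen. Liver and kidney of a mouse share its number in the labels, and their deviations from the group means correlated across 14379 genes between −0.01 and 0.51.

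On simulated data with 200 genes shifted by 1.5 on the log2 scale, 170 were recovered in the liver comparison (12835 genes), 98 in the kidney comparison (14452 genes), 160 for liver against kidney and 74 for the interaction (14379 genes each). Of the genes not shifted, 14, 11, 12 and 10 were called. The noise was independent between genes, with no mouse high in many genes at once, and the shifted genes were drawn at random. These counts therefore do not give the recovery of the class II genes. That the samples of a condition are separate mice is given by the labels. Other alternatives are named in the closing section. Limits from counts of 0 use 3 fragments and cover counting error only.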

Additional observations from a re-analysis of the deposited data

Results flagged for a closer look

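Within each condition and organ, the gap between the highest or lowest mouse and its nearest neighbour was set against the whole range of the 4 mice on the log2(FPKM + 0.1) scale, with Dixon's critical value for 4 values as the limit. Of the 36 groups of 4 examined, 6 passed, and chance passes about 1 in 20 groups. The groups hold genes that vary together in the same mice and are not separate tries, so the count cannot be read against that rate. In the ADV livers the highest mouse was A94 in 5 of these, with a share of the range of 0.842 for Cd74, 0.851 for H2-DMa, 0.937 for H2-DMb2, 0.913 for H2-Oa and 0.961 for H2-Ob. In the LD kidneys L86 stood apart for Cd74 with a share of 0.897.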

How the results depend on the processing

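In the ADV minus LD comparisons 0 class II genes were called under any alternative run: pseudocounts of 0.5 and 1, no filter or a mean FPKM above 1, median-ratio scaling, quantile normalization, no variance trend, limma-voom, a joint fit of the organs, and each mouse left out. Treating the mouse as a replicate block changed no call of a class II gene, in the joint fit, for the levels of the organs (7 called) or for the interaction (0 called). Leaving out each mouse in turn, the kidney median over the class II genes ranged from −0.0155 to 1.31, with a sign change without A94. For the single genes these ranges were −0.027 to 1.18 for Ciita in the liver, and in the kidney −0.080 to 1.204 for H2-Aa, −0.0155 to 1.31 for H2-Eb1, −0.067 to 1.22 for Cd74, −0.0017 to 1.37 for H2-DMa, −0.55 to 1.55 for H2-Oa and −0.079 to 1.25 for H2-Ob. Without A94 and A115, which was added after seeing the data, the median interaction was −0.019, with H2-Eb1 at −0.019, H2-DMa at −0.26 and H2-Oa at −0.40. The interaction of Ciita, −0.0073 with all mice, was 0.031 with limma-voom, 0.071 without A115 under median-ratio scaling, and −0.14 to 0.20 when mice were left out. Between the organs, 3 class II genes were called under median-ratio scaling and 4 under quantile normalization, with medians of −1.01 and −0.97, and −1.09 under median-ratio scaling without A115. These settings move the median gene by construction. Under quantile normalization H2-Oa was at 0.066 and H2-Ob at 0.31. The ratio of H2-Ob to H2-Ab1, ADV minus LD in the liver, was −0.41 and −0.59 with pseudocounts of 0.5 and 1. Leaving out mice gave ranges in the liver of −0.20 to 0.22 for this ratio, −0.088 to 0.12 for H2-Aa and −0.23 to 0.052 for H2-DMa, and in the kidney of −0.43 to 0.040 for H2-Ob. The cause of these changes was not tested. Over all genes, the count called in the kidney was 0 with all mice, 2724 without A115, 672 without A94 and A115, and 1 in the joint fit. In the liver it was 1 and ranged from 0 to 9, and for the interaction it was 0, up to 746 without A94 and A115 and 415 without A115. The planned ratio of H2-DMb1 was not run. Depth limits H2-Oa, H2-Ob and H2-DMb2 in the livers.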
